A study of Homo sapiens with 16 samples.

Results

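Mitosis and G2/M genes were followed across 4 groups of SW480 cells, as 58 genes of the 19775 analysed on the arrays. The genes are defined by symbol, as genes of mitotic entry, the spindle, the kinetochore and cell division, and all 58 had a probe set paired with a single gene. SW480 is a human colorectal cancer cell line with a truncated APC gene and active beta-catenin. Total RNA was hybridised to Affymetrix arrays, with 4 arrays, lettered A to D, in each group and 16 in all. Cells of the siTAZ group carried an empty vector and received an siRNA against TAZ (gene WWTR1), a transcriptional coactivator of the Hippo pathway. Cells of the sibcat group carried the same empty vector and received an siRNA against beta-catenin (gene CTNNB1). In APC cells the stable vector encoded wild-type APC, and the siRNA was the control one. The siGFP cells, the controls, carried the empty vector with the control siRNA. Every group thus had a stable vector and an siRNA, each target had a single siRNA condition, and whether the stable lines were clones or pools was not given in the sources used here. The series concerns TAZ as a mediator of Wnt signalling, and the comparisons ask how mitotic gene expression differed when TAZ or beta-catenin was targeted or APC restored.

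Mitosis is driven by CDK1 bound to cyclins A and B, and its genes are transcribed together late in the cell cycle. Chromosomes condense, attach by their kinetochores to spindle microtubules, and separate once the spindle checkpoint lets the anaphase-promoting complex act. The late genes are switched on by complexes built on MuvB, a protein core that pairs with MYBL2 and FOXM1, and are silenced in resting cells by a complex of the same core with RBL1 or RBL2 and E2F. MuvB binds a promoter element called the cell cycle homology region (CHR), often near CCAAT boxes, which NF-Y binds, whereas E2F sites are typical of DNA replication genes. In the intestine dividing cells are found in the crypts, where Wnt signalling is high.

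Many promoters of the members, though not all, held a CHR match or a CCAAT box. Of these promoters 6 windows are shown: 5 with a CHR match, in genes described below, and CCNB1 as a contrast without the CHR letters searched. RefSeq windows from 250 bases before to 50 bases after the start (GRCh38.p14) were at hand for 49 of the 58 members. AURKA, BIRC5, BUB3, CENPM, FOXM1, RACGAP1, TPX2, TTK and UBE2C had no entry. Each line below gives 150 bases, 120 before and 30 after the start, with capitals for a match on either strand to the CHR (TTTGAA or TTCGAA) or the CCAAT box (CCAAT). The windows are CCNB2 at chr15:59105026-59105175 on the plus strand, PRC1 at chr15:90994506-90994655 on the minus strand, KIF11 at chr10:92593010-92593159 on the plus strand, CENPA at chr2:26785936-26786085 on the plus strand, BUB1 at chr2:110678034-110678183 on the minus strand and CCNB1 at chr5:69167030-69167179 on the plus strand.
CCNB2: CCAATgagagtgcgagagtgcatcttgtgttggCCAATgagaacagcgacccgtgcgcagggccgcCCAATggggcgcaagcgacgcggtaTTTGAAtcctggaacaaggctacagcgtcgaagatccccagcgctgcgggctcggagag
PRC1: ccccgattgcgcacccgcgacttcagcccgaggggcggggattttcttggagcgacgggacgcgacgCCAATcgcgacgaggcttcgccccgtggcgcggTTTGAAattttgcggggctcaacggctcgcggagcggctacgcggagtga
KIF11: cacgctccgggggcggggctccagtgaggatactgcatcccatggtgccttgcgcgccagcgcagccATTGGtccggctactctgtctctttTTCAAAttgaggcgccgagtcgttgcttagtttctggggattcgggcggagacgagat
CENPA: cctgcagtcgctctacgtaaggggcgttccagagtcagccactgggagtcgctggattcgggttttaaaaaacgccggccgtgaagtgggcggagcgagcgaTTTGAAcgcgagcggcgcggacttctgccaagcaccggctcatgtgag
BUB1: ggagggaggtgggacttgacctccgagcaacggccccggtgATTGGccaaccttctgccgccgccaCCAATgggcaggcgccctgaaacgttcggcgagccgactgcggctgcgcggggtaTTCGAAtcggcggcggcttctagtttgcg
CCNB1: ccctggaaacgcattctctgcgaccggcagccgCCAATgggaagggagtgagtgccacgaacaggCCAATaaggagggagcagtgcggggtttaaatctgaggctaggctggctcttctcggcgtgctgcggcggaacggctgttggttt
Counted from the start, the CHR match began at position -29 in CCNB2, -28 in KIF11, -20 in PRC1, -18 in CENPA and 2 in BUB1. CCNB1 had 2 CCAAT boxes and no match to these CHR letters. Only these letters were searched, so a CHR element spelled otherwise would be missed, in CCNB1 as in other members.

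Over the whole windows of 300 bases, 34 of 49 members (69.4%) held a CHR match, against 16.6% of all 27305 promoters. A CCAAT box lay in 33 members (67.3%), against 35.7% of all promoters, and 23 members (46.9%) held both, against 6.58%. At least 2 CCAAT boxes were found in 19 members (38.8%), against 11.3% of all promoters. An E2F site (TTCCCGC or TTGGCGC, either strand, which can share letters with a CCAAT box) lay in 11 members (22.4%), against 9.33% of all promoters. DNA replication genes held the reverse mix: 2 of 41 (4.88%) had a CHR match and 27 (65.9%) an E2F site. In 30 members a CHR match lay within 60 bases of the start. These are matches of letters, given as a description, and binding was not measured.

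**Figure D1:**
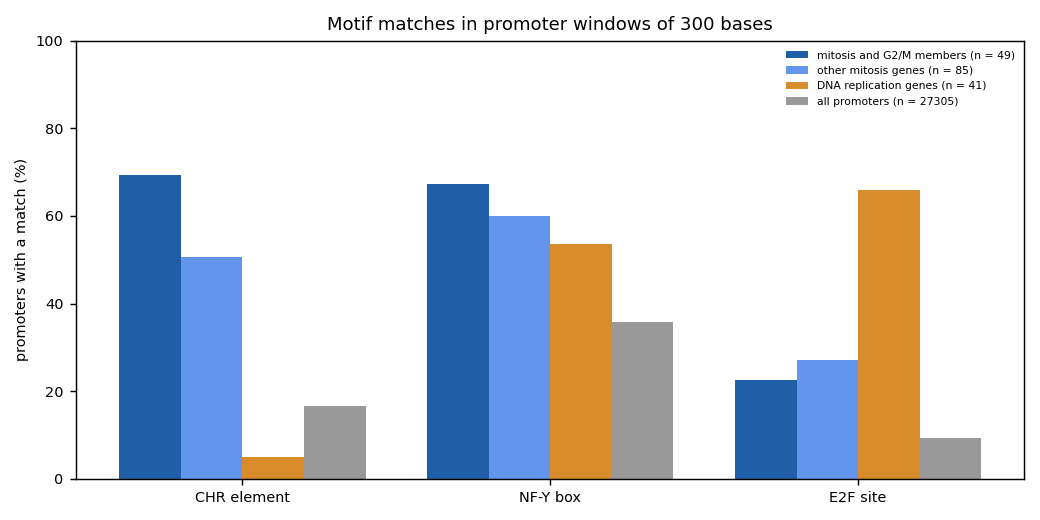
Share of promoter windows (%, vertical axis) with a match to the CHR element, the CCAAT box bound by NF-Y (NF-Y box) and the E2F site in the members, the other mitosis genes, the DNA replication genes and all promoters. The CHR share was 69.4% in members, 50.6% in other mitosis genes, 4.88% in DNA replication genes and 16.6% in all promoters.

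The siRNAs lowered their targets on the arrays. WWTR1 stood at 6.77 to 7.06 on the log2 scale in siTAZ cells and 10.13 to 10.39 in siGFP cells, and CTNNB1 at 9.94 to 10.43 in sibcat cells and 12.97 to 13.27 in siGFP cells. The targets moved in other groups too. Against siGFP cells, WWTR1 was higher in sibcat cells (log2 difference 0.70) and APC cells (0.725), with 1 of its 2 other probe sets called higher in each. CTNNB1 was lower in APC cells (-0.375, and -0.51 and -0.58 on its other probe sets). The brightest APC probe set read 8.05 to 8.43 in APC cells and 7.75 to 8.45 in siGFP cells, which overlapped. Of the other 4 APC probe sets 2 were called higher in APC cells, and their differences ran from 0.00 to 1.11. Of 11 colorectal epithelium markers, 8 lay above the median probe set level of 5.10 in every group, while KRT20, LGALS4 and GPA33 did not. Leukocyte markers had a median near that level (5.12 in sibcat cells and 5.20 in siGFP cells), with 2 of 5 above it in every group. PTPRC averaged 3.13 in sibcat cells and 3.15 in siGFP cells, and the brightest leukocyte marker 6.38 and 6.39. CD14 averaged 6.24 in sibcat cells and 4.60 in siGFP cells. Fibroblast and endothelial markers were mostly lower (median 4.03 in sibcat cells and 4.245 in siGFP cells), with 2 of 8 above that level in every group. The signal difference between 3′ and 5′ ACTB control probe sets, a measure of RNA integrity and labelling, was 2.57 ± 0.39 in siTAZ cells, 2.30 ± 0.24 in sibcat cells, 2.08 ± 0.32 in APC cells and 2.05 ± 0.16 in siGFP cells (SD, n = 4 each). Replicates A and B exceeded C and D in this measure in every group. The part of CD14 or of the ACTB measure in the results was not tested, apart from the fit with the ACTB measure given below. The siTAZ against siGFP difference of 0.51 had an exact two-sided permutation p of 0.0571 (0.343 adjusted over 6 comparisons), and the smallest p 4 against 4 arrays can give is 0.0286. Within replicates A and B the difference was 0.68, and within C and D 0.35, with every siTAZ array above both siGFP arrays of the same letters. For sibcat against siGFP these values were 0.33 and 0.17, again with no overlap. A permutation test within these letters, added after the data were seen, gave an exact two-sided p of 0.0556 for each of these comparisons (0.0667 adjusted over 6), the smallest it can give. The same test gave the same p for siTAZ against sibcat (0.35 and 0.18), APC against sibcat (-0.155 and -0.295) and siTAZ against APC (0.505 and 0.475). For APC against siGFP (0.175 and -0.13) it gave 0.833. Array B of the siGFP group gave the lowest siGFP value for 34 of 58 members (58.6%), against 29.9% of all genes, and counts without it are given below. Arrays of the other groups stood out as well. Array A was lowest in sibcat cells for 31 members (53.4%, against 28.5% of all genes). Array B was lowest in siTAZ cells for 26 (44.8%, against 29.1%), and array C highest in APC cells for 30 (51.7%, against 26.8%). Ranges of the counts on leaving out each array are given in the last section. In bulk RNA, fewer cells in mitosis and less mitotic mRNA per cell cannot be told apart.

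The mitotic genes were lowest in sibcat cells. The median member level in each array was 10.15, 10.07, 10.07 and 10.08 in siTAZ cells, 9.57, 9.61, 9.69 and 9.70 in sibcat cells, 10.27, 10.30, 10.37 and 10.31 in APC cells, against 10.18, 10.20, 10.22 and 10.26 in siGFP cells (log2, replicates A to D, the order used throughout). The sibcat arrays were apart from all others, the siTAZ arrays lay just under the siGFP arrays, and the APC arrays lay just above them. Of the 4 group means, the sibcat mean was the lowest for 48 of 58 members (82.8%), against 27.3% of all genes. The APC mean was the highest for 30 members (51.7%), against 31.0% of all genes. Replicates were close: the median SD of members within a group was 0.06 to 0.08, and the largest, 0.41, was that of CENPK in siGFP cells.

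**Figure D2:**
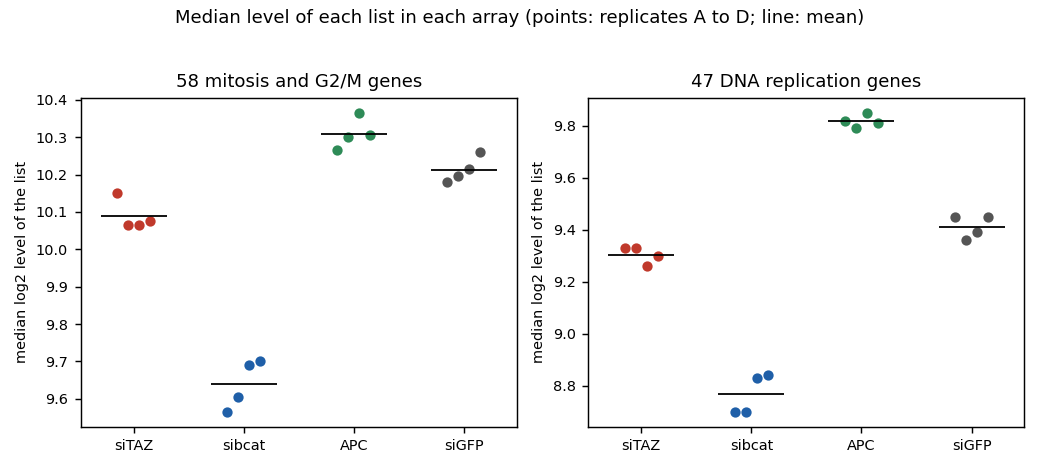
Median log2 level (vertical axis) of the 58 mitosis and G2/M genes (left) and of 47 DNA replication genes (right) in each array, by group; points are replicates A to D and lines are group means. The member median averaged 10.09 in siTAZ cells, 9.64 in sibcat cells, 10.31 in APC cells and 10.21 in siGFP cells.

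In sibcat cells 51 of 58 members fell, 1 rose and 6 did not pass the test against siGFP cells. A gene was called changed at a limma Benjamini-Hochberg adjusted p under 0.05 over all genes. Over all genes, 17.3% were called lower and 18.6% higher. The members' median log2 difference was -0.45 (73.5% of the siGFP signal), beside 0.00 over all genes, and the differences ran from -0.91 to 0.25. Falls were moderate: 15 members were lower by 1.5-fold or more, and 0 by 2-fold or more. The sibcat and siGFP arrays did not overlap for 49 of the 52 called members. No share over all genes is set beside this count, which follows in part from the call and adds no support to it. Without siGFP array B the counts were 51 lower and 1 higher.

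In siTAZ cells 27 members fell, 2 rose and 29 did not pass, beside 13.1% of all genes called lower and 17.0% higher. The median log2 difference was -0.15 (90.2% of siGFP), beside 0.015 over all genes, but the range was wide, from -1.98 (PRC1) to 0.37 (CDC25B). Only 5 members were lower by 1.5-fold or more: PRC1, CENPA, SKA1, SKA3 and CDK1. The siTAZ and siGFP arrays did not overlap for any of the 29 called members, a count that again follows in part from the call. With the ACTB measure as a covariate 22 members were lower. In replicates A and B alone 15 were lower, and in C and D alone 24. Without siGFP array B the counts were 30 lower and 2 higher.

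In APC cells 11 members rose, 10 fell and 37 did not pass, beside 16.6% of all genes called higher and 17.1% lower, shares close to the members' own. The median log2 difference was 0.034, beside 0.01 over all genes, and 0 members passed 1.5-fold in either direction. The split moved with scaling: 12 higher and 7 lower when arrays were centred on their median gene, and 16 higher and 8 lower when the gene values were quantile-normalised over again. The APC and siGFP arrays overlapped for 5 of the 21 called members. Without siGFP array C 6 members were lower, and without siGFP array B 10 were higher and 11 lower. The 3 comparisons share the siGFP arrays.

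**Figure D3:**
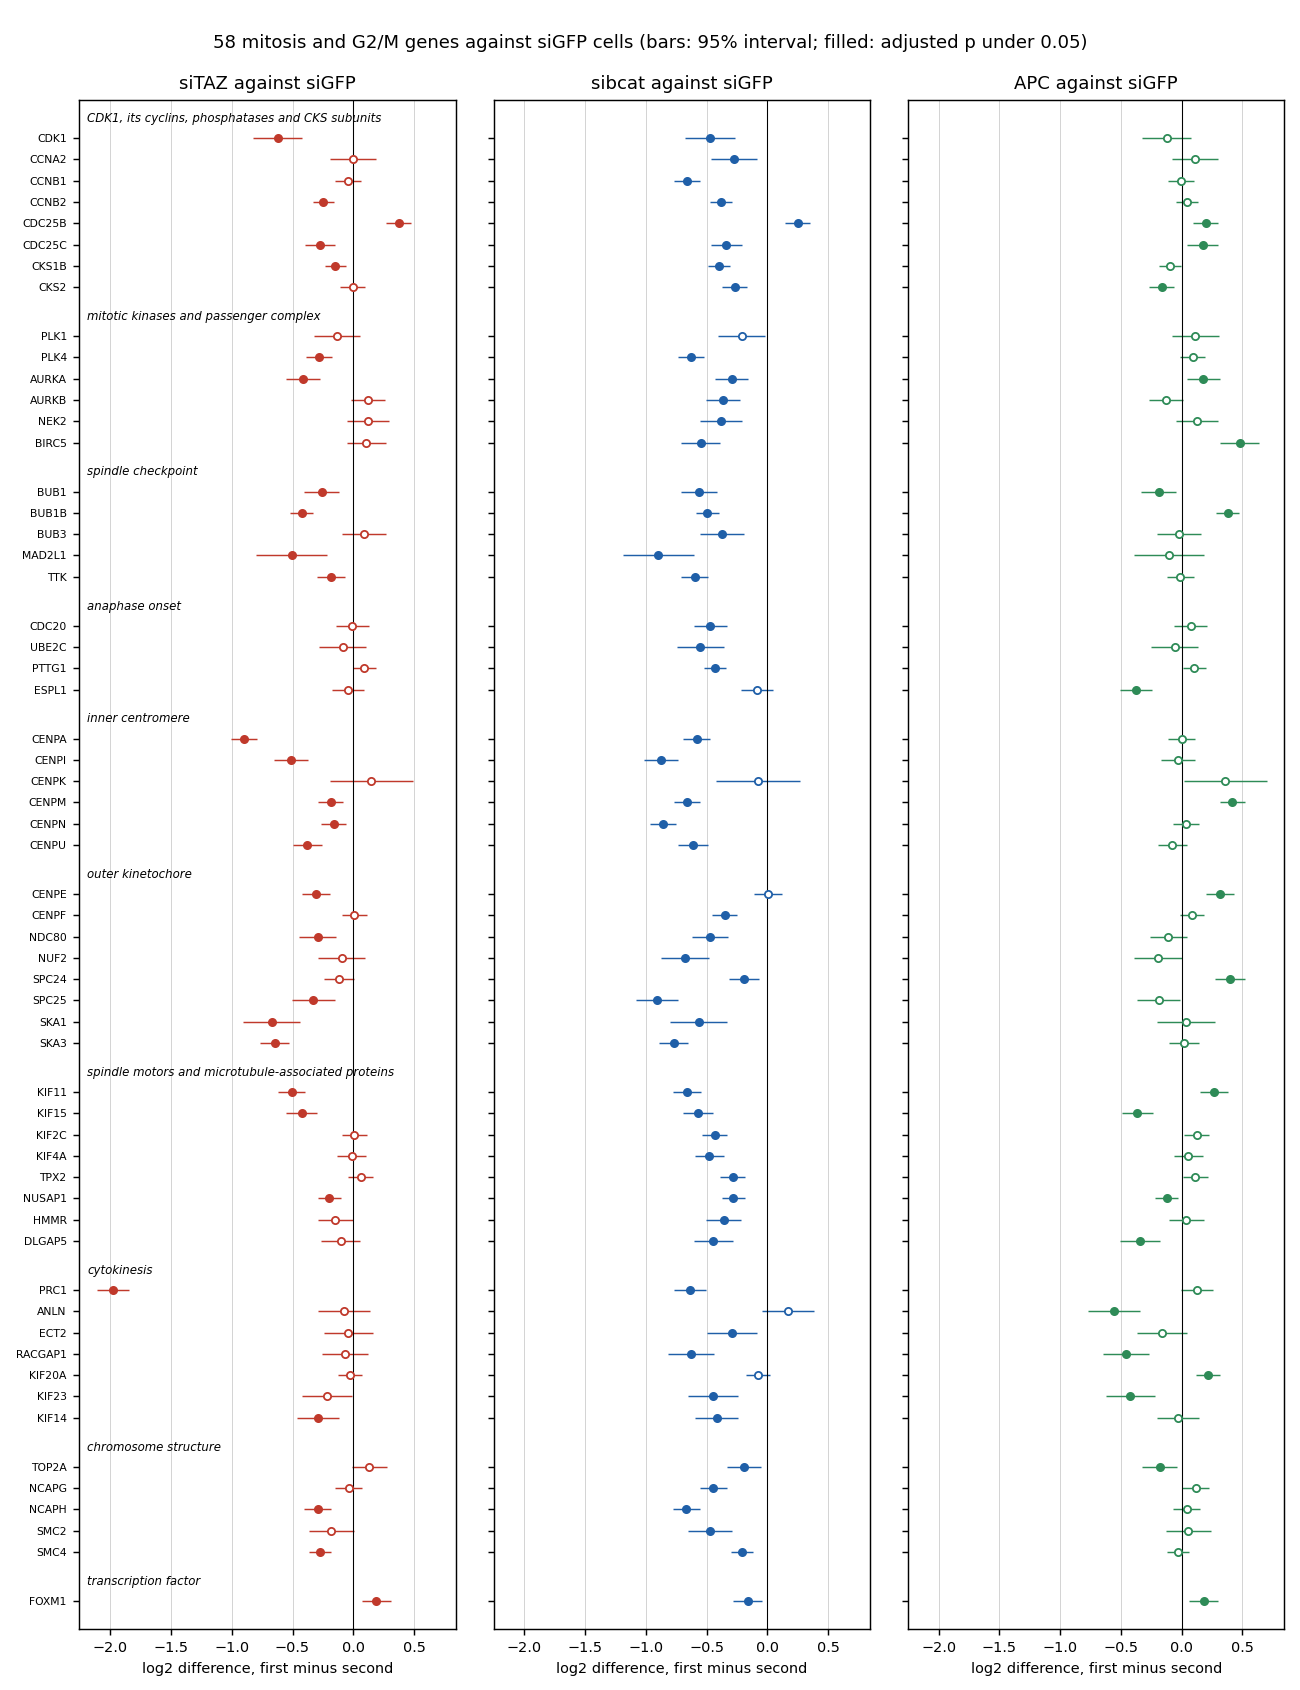
Log2 difference of each of the 58 members (rows, by role) in siTAZ, sibcat and APC cells (panels, left to right), each minus siGFP cells, on a shared horizontal axis; bars are 95% intervals and filled points have an adjusted p under 0.05. PRC1 lies farthest left in siTAZ cells at -1.98, 51 points are filled left of 0 in sibcat cells, and 11 right and 10 left of 0 in APC cells.

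CDK1, its cyclins, phosphatases and CKS subunits numbered 8 members. In sibcat cells 7 fell and 1 rose, in siTAZ cells 4 fell and 1 rose, and in APC cells 1 fell and 2 rose. Of all genes 13.1%, 17.3% and 17.1% were called lower in siTAZ, sibcat and APC cells, and 17.0%, 18.6% and 16.6% higher. These shares stand beside the counts of this and every later role class. A count near them in so small a class, as for many in APC cells, is no result about the class. CDK1, the kinase of mitotic entry, read 10.78, 10.82, 10.95 and 11.02 in siTAZ cells, 10.88, 11.03, 11.20 and 11.06 in sibcat cells and 11.18, 11.39, 11.52 and 11.47 in APC cells, against 11.46, 11.29, 11.69 and 11.62 in siGFP cells. The siTAZ and sibcat arrays lay below all siGFP arrays, while the APC arrays overlapped them. CDK1 fell in siTAZ cells (log2 difference -0.62, SE 0.096, adjusted p = 8.21e-05) and in sibcat cells (log2 difference -0.47, SE 0.096, adjusted p = 0.000814), and its other 3 probe sets fell as well in both. Cyclin B1, CCNB1, the main mitotic partner of CDK1, read 11.52, 11.51, 11.46 and 11.49 in siTAZ cells, 10.79, 10.89, 10.94 and 10.87 in sibcat cells and 11.44, 11.52, 11.63 and 11.53 in APC cells, against 11.55, 11.48, 11.53 and 11.59 in siGFP cells. Here sibcat arrays alone stood low, at 63.1% of siGFP (log2 difference -0.67, SE 0.051, adjusted p = 1.65e-08), and the siTAZ difference of -0.043 did not pass (95% interval -0.15 to 0.065). In APC cells the 2 CCNB1 probe sets disagreed, with -0.0075 for the brightest and 0.28 for the other.

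CCNB2, cyclin B2, read 11.08, 11.15, 11.20 and 11.16 in siTAZ cells, 11.03, 11.01, 10.98 and 11.01 in sibcat cells and 11.49, 11.40, 11.43 and 11.42 in APC cells, against 11.40, 11.39, 11.38 and 11.40 in siGFP cells. It fell by 0.25 in siTAZ cells and by 0.39 in sibcat cells with no overlap, but with the mean of its probe sets neither passed (-0.07 in siTAZ cells and -0.13 in sibcat cells). CKS1B, a small subunit of CDK complexes, read 11.43, 11.38, 11.41 and 11.39 in siTAZ cells, 11.15, 11.13, 11.15 and 11.17 in sibcat cells and 11.42, 11.44, 11.46 and 11.49 in APC cells, against 11.58, 11.60, 11.50 and 11.52 in siGFP cells. Both siRNA groups lay below siGFP for CKS1B (limma adjusted p = 0.0116 in siTAZ cells and 7.04e-07 in sibcat cells), the siTAZ call being lost under 4 of 27 alternative settings that gave it a value. CKS2, its paralog, read 12.63, 12.63, 12.64 and 12.58 in siTAZ cells, 12.37, 12.39, 12.37 and 12.30 in sibcat cells and 12.49, 12.44, 12.51 and 12.41 in APC cells, against 12.67, 12.51, 12.68 and 12.64 in siGFP cells, and fell in sibcat cells by 0.27 and in APC cells by 0.16, the APC call being lost under 5 of its 27. CDC25B, a phosphatase that activates CDK1, went the other way and rose in every group. It read 10.62, 10.58, 10.59 and 10.61 in siTAZ cells, 10.40, 10.45, 10.50 and 10.55 in sibcat cells and 10.35, 10.43, 10.43 and 10.49 in APC cells, against 10.17, 10.27, 10.21 and 10.26 in siGFP cells, and all siGFP arrays were the lowest (log2 difference 0.37, SE 0.048, adjusted p = 1.23e-05 in siTAZ cells). Its differences were 0.25 in sibcat cells and 0.20 in APC cells. CDC25C, a related phosphatase, fell by 0.27 in siTAZ cells and by 0.34 in sibcat cells on its brightest probe set. Another of its probe sets was called lower as well (-0.55 in siTAZ cells and -0.68 in sibcat cells). The remaining CDC25C probe set read 0.24 and 0.19 higher there and was not called. CCNA2, cyclin A2, fell in sibcat cells by 0.28, with overlap of the siGFP arrays and a call lost under 6 of 28 alternatives, and in siTAZ cells its brightest probe set differed by 0.00 while the other differed by -0.39.

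Mitotic kinases and the passenger complex held 6 members, of which 5 fell in sibcat cells, 2 fell in siTAZ cells and 2 rose in APC cells. AURKA, the spindle pole kinase, read 11.02, 10.98, 11.13 and 11.08 in siTAZ cells, 11.10, 11.11, 11.21 and 11.27 in sibcat cells and 11.50, 11.62, 11.73 and 11.73 in APC cells, against 11.35, 11.47, 11.50 and 11.55 in siGFP cells. AURKA fell in siTAZ cells (log2 difference -0.42, SE 0.065, adjusted p = 9.19e-05) and sibcat cells (log2 difference -0.30, SE 0.065, adjusted p = 0.00156), and both calls were lost without the probe sets that can cross-hybridise (-0.20 in siTAZ cells and -0.29 in sibcat cells). Its rise of 0.18 in APC cells overlapped siGFP and was lost under 13 of 28 alternatives. BIRC5 (survivin), a subunit of the chromosomal passenger complex, read 10.22, 10.17, 10.34 and 10.33 in siTAZ cells, 9.51, 9.51, 9.70 and 9.71 in sibcat cells and 10.59, 10.46, 10.73 and 10.76 in APC cells, against 10.10, 10.09, 10.18 and 10.26 in siGFP cells. APC arrays were all above, and sibcat arrays all below, the siGFP arrays. BIRC5 rose to 139% of siGFP in APC cells (log2 difference 0.48, SE 0.075, adjusted p = 7.37e-05), on each of its 4 probe sets, and fell to 68.3% in sibcat cells (log2 difference -0.55, SE 0.075, adjusted p = 1.51e-05). The siTAZ difference was 0.11 and did not pass, and the other BIRC5 probe sets disagreed there, at -0.08, 0.22 and -0.30 (1 called higher and 1 lower).

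PLK4, which controls centriole duplication, read 8.36, 8.38, 8.48 and 8.47 in siTAZ cells, 8.06, 8.01, 8.11 and 8.13 in sibcat cells and 8.78, 8.77, 8.78 and 8.85 in APC cells, against 8.63, 8.69, 8.72 and 8.78 in siGFP cells. It fell by 0.28 in siTAZ cells and by 0.63 in sibcat cells (limma adjusted p = 0.000291 and 2.79e-08). PLK1, a kinase of centrosome maturation and of anaphase, was dim, with a mean of 5.93 close to the median probe set level of 5.10. PLK1 read 5.96, 5.70, 5.97 and 5.79 in siTAZ cells, 5.72, 5.90, 5.53 and 5.96 in sibcat cells and 6.28, 6.01, 6.01 and 6.11 in APC cells, against 5.99, 5.99, 5.99 and 5.99 in siGFP cells, and its differences of -0.14, -0.21 and 0.11 in siTAZ, sibcat and APC cells did not pass. AURKB, the kinase of the passenger complex, and NEK2, a centrosome kinase, fell in sibcat cells by 0.37 and 0.38. In siTAZ cells they differed by 0.13 and 0.12, which did not pass. The other AURKB probe set was called higher there (0.33), and the other NEK2 probe set read -0.37 and was not called.

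All 5 spindle checkpoint genes fell in sibcat cells and 4 fell in siTAZ cells. MAD2L1, whose protein inhibits CDC20, read 10.53, 10.36, 10.57 and 10.57 in siTAZ cells, 9.91, 10.00, 10.38 and 10.18 in sibcat cells and 10.85, 10.76, 11.07 and 10.97 in APC cells, against 10.97, 10.59, 11.39 and 11.11 in siGFP cells. The siGFP arrays spread widely, and siGFP array B was the lowest of them, and the siTAZ and sibcat arrays all lay below it, while the APC arrays overlapped siGFP. MAD2L1 fell to 53.7% of siGFP in sibcat cells (log2 difference -0.90, SE 0.14, adjusted p = 4.84e-05) and to 70.3% in siTAZ cells (log2 difference -0.51, SE 0.14, adjusted p = 0.00847). With the ACTB measure as a covariate the siTAZ call was lost, at -0.33, while the other 2 probe sets were lower in siTAZ cells by more (-0.88 and -1.27). BUB1B (BubR1), which joins the checkpoint inhibitor, read 9.73, 9.64, 9.58 and 9.69 in siTAZ cells, 9.54, 9.60, 9.63 and 9.58 in sibcat cells and 10.46, 10.47, 10.45 and 10.46 in APC cells, against 10.04, 10.08, 10.10 and 10.11 in siGFP cells. BUB1B separated the groups without overlap in 3 steps, with APC cells highest (log2 difference 0.38, SE 0.045, adjusted p = 3.34e-06), siGFP next, and siTAZ and sibcat cells overlapping at the bottom. It fell by 0.42 in siTAZ cells and by 0.50 in sibcat cells. BUB1, a checkpoint kinase, read 10.10, 10.09, 10.14 and 10.11 in siTAZ cells, 9.70, 9.75, 9.92 and 9.85 in sibcat cells and 10.08, 10.09, 10.33 and 10.22 in APC cells, against 10.36, 10.22, 10.46 and 10.44 in siGFP cells. Its fall was -0.26 in siTAZ cells and -0.57 in sibcat cells, and its APC call (-0.19) was lost or reversed under 17 of 28 alternatives. TTK (MPS1), the kinase that starts checkpoint signalling, fell by 0.18 and 0.60 in siTAZ and sibcat cells, and BUB3 fell in sibcat cells by 0.38.

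Of the 4 genes of anaphase onset, 3 fell in sibcat cells, 0 passed in siTAZ cells and 1 fell in APC cells. CDC20, the activator of the anaphase-promoting complex, read 11.26, 11.25, 11.18 and 11.21 in siTAZ cells, 10.85, 10.84, 10.67 and 10.69 in sibcat cells and 11.40, 11.36, 11.22 and 11.25 in APC cells, against 11.33, 11.32, 11.13 and 11.16 in siGFP cells. Only the sibcat arrays stood apart, at 72.1% of siGFP (log2 difference -0.47, SE 0.064, adjusted p = 1.41e-05), and the siTAZ difference was -0.010 (95% interval -0.15 to 0.13). UBE2C, the ubiquitin-conjugating enzyme of that complex, read 12.07, 12.09, 11.86 and 11.85 in siTAZ cells, 11.54, 11.71, 11.38 and 11.38 in sibcat cells and 12.08, 12.10, 11.92 and 11.89 in APC cells, against 12.18, 12.18, 11.91 and 11.95 in siGFP cells and fell in sibcat cells (log2 difference -0.55, SE 0.092, adjusted p = 0.000118). In UBE2C and CDC20 replicates A and B were above C and D in the siTAZ, APC and siGFP groups, and in sibcat cells as well. PTTG1 (securin) fell by 0.43 in sibcat cells. ESPL1 (separase), the protease that cuts cohesin, differed from these: it read 9.36, 9.25, 9.18 and 9.26 in siTAZ cells, 9.27, 9.31, 9.13 and 9.15 in sibcat cells and 9.06, 8.91, 8.87 and 8.86 in APC cells, against 9.37, 9.34, 9.22 and 9.28 in siGFP cells. APC arrays were all the lowest for ESPL1 (log2 difference -0.38, SE 0.062, adjusted p = 0.000117), and the sibcat difference of -0.088 did not pass.

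Of 6 inner kinetochore genes, headed inner centromere in the figures, 5 fell in siTAZ cells, 5 fell in sibcat cells and 1 rose in APC cells. CENPA, the histone H3 variant that marks centromeres, read 8.10, 8.17, 8.10 and 7.97 in siTAZ cells, 8.38, 8.39, 8.42 and 8.41 in sibcat cells and 8.96, 8.98, 9.05 and 8.94 in APC cells, against 8.93, 9.05, 8.93 and 9.02 in siGFP cells. The siTAZ arrays were the lowest, sibcat arrays came next, and APC and siGFP arrays overlapped. CENPA fell to 53.7% of siGFP in siTAZ cells (log2 difference -0.90, SE 0.051, adjusted p = 1.11e-09) and to 66.8% in sibcat cells (log2 difference -0.58, SE 0.051, adjusted p = 9.64e-08), and it was lower in siTAZ than in sibcat cells (log2 difference -0.32, SE 0.051, adjusted p = 8.83e-05). CENPI, a subunit of the constitutive centromere network, read 6.91, 7.09, 6.95 and 7.00 in siTAZ cells, 6.49, 6.68, 6.61 and 6.70 in sibcat cells and 7.40, 7.50, 7.50 and 7.48 in APC cells, against 7.52, 7.33, 7.54 and 7.60 in siGFP cells. Its fall was larger in sibcat cells (-0.88) than in siTAZ cells (-0.51), a difference that passed the test between these groups (log2 difference 0.37, SE 0.065, adjusted p = 0.000213) but not with the mean of its probe sets (0.033), of which the others ran from -0.73 to 0.09 in sibcat cells and from -0.66 to -0.075 in siTAZ cells, each against siGFP cells. CENPM, of the same network, read 8.40, 8.39, 8.41 and 8.42 in siTAZ cells, 7.96, 7.80, 7.98 and 7.97 in sibcat cells and 9.01, 9.01, 8.95 and 9.06 in APC cells, against 8.60, 8.54, 8.60 and 8.62 in siGFP cells. CENPM fell in sibcat cells by 0.66 and in siTAZ cells by 0.19, and rose in APC cells (log2 difference 0.42, SE 0.049, adjusted p = 2.89e-06). CENPN fell by 0.86 in sibcat cells and by only 0.16 in siTAZ cells, where another probe set read 0.088 higher. CENPU fell by 0.38 in siTAZ cells and by 0.61 in sibcat cells. CENPK passed in no comparison with siGFP cells, with siGFP arrays spread from 7.68 to 8.67.

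Among 8 outer kinetochore genes 7 fell in sibcat cells and 5 in siTAZ cells, and 2 rose in APC cells. The 4 genes of the NDC80 complex, which holds microtubule ends, all fell in sibcat cells. SPC25, of that complex, read 9.88, 9.84, 9.98 and 9.89 in siTAZ cells, 9.23, 9.24, 9.43 and 9.37 in sibcat cells and 9.98, 9.82, 10.27 and 10.07 in APC cells, against 10.19, 10.11, 10.27 and 10.33 in siGFP cells. It had the largest fall of any member in sibcat cells, to 53.3% of siGFP (log2 difference -0.91, SE 0.082, adjusted p = 1.43e-07), and fell by 0.33 in siTAZ cells. The siTAZ call was lost with the ACTB covariate (-0.19). NUF2 and NDC80 fell in sibcat cells by 0.68 and 0.48, and CENPF, a large protein of the kinetochore corona, by 0.35. SPC24, the partner of SPC25, read 8.03, 8.04, 8.11 and 8.09 in siTAZ cells, 7.97, 7.96, 8.02 and 8.02 in sibcat cells and 8.57, 8.59, 8.54 and 8.64 in APC cells, against 8.13, 8.06, 8.19 and 8.36 in siGFP cells. SPC24 rose in APC cells by 0.40 (limma adjusted p = 2.98e-05), a call lost with the mean of its probe sets, and fell by 0.19 in sibcat cells. SKA1, which tracks microtubule ends, was dim, with a mean of 5.51. It read 5.31, 5.11, 5.14 and 4.99 in siTAZ cells, 5.23, 5.16, 5.23 and 5.34 in sibcat cells and 5.56, 5.79, 6.13 and 5.89 in APC cells, against 5.89, 5.56, 5.77 and 6.01 in siGFP cells and fell in siTAZ cells (log2 difference -0.67, SE 0.11, adjusted p = 0.000158) and sibcat cells (log2 difference -0.57, SE 0.11, adjusted p = 0.000554). SKA3, its partner, fell by 0.65 and 0.77 in siTAZ and sibcat cells. CENPE, a kinesin that carries chromosomes to the spindle equator, was higher in APC cells (0.32) and lower in siTAZ cells (-0.31), and in sibcat cells its difference of 0.0075 did not pass.

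Spindle motors and microtubule-associated proteins numbered 8, and all fell in sibcat cells, 3 fell in siTAZ cells, and in APC cells 1 rose and 3 fell. KIF11 (Eg5), the motor that pushes spindle poles apart, read 9.13, 9.00, 9.01 and 9.05 in siTAZ cells, 8.87, 8.87, 8.94 and 8.89 in sibcat cells and 9.79, 9.77, 9.88 and 9.85 in APC cells, against 9.52, 9.44, 9.62 and 9.64 in siGFP cells. The APC arrays were all above, and the siTAZ and sibcat arrays all below, the siGFP arrays. KIF11 fell by 0.51 in siTAZ cells and 0.66 in sibcat cells and rose in APC cells (log2 difference 0.27, SE 0.053, adjusted p = 0.000743). KIF15, a motor that can act beside KIF11, read 8.39, 8.38, 8.36 and 8.47 in siTAZ cells, 8.13, 8.26, 8.26 and 8.36 in sibcat cells and 8.46, 8.44, 8.56 and 8.38 in APC cells, against 8.81, 8.74, 8.83 and 8.92 in siGFP cells. All siGFP arrays were the highest for KIF15, and it fell in siTAZ (-0.43), sibcat (-0.57) and APC cells (-0.37). NUSAP1, a microtubule bundler, fell as well in these groups (-0.20, -0.28 and -0.13), the APC call being lost under 13 of 28 alternatives. HMMR, a spindle-associated protein, fell in sibcat cells by 0.36 and differed by -0.15 in siTAZ cells, where its other probe set was called lower (-0.31). DLGAP5, a stabiliser of kinetochore fibres, fell in sibcat cells by 0.45 and in APC cells by 0.34. TPX2, the activator of AURKA, KIF2C, a microtubule depolymerase, and KIF4A, a chromosome motor, fell in sibcat cells by 0.29, 0.44 and 0.48. In siTAZ cells these differed by 0.060, 0.0075 and -0.013 and did not pass.

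Cytokinesis genes numbered 7, of which 5 fell in sibcat cells and 2 in siTAZ cells, and in APC cells 1 rose and 3 fell. PRC1, which bundles the microtubules of the central spindle, read 8.53, 8.26, 8.32 and 8.20 in siTAZ cells, 9.65, 9.61, 9.73 and 9.69 in sibcat cells and 10.42, 10.42, 10.40 and 10.50 in APC cells, against 10.27, 10.37, 10.29 and 10.30 in siGFP cells. The siTAZ arrays stood more than a log2 unit below every other array. PRC1 fell to 25.3% of siGFP in siTAZ cells (log2 difference -1.98, SE 0.063, adjusted p = 1.11e-12), the largest difference of any member in the comparisons with siGFP cells, and to 64.3% in sibcat cells (log2 difference -0.64, SE 0.063, adjusted p = 3.61e-07). It rests on a single probe set of a kind whose ID marks possible cross-hybridisation. Anillin, ANLN, the scaffold of the contractile ring, was lowest in APC cells. It read 12.34, 12.31, 12.35 and 12.39 in siTAZ cells, 12.46, 12.58, 12.73 and 12.59 in sibcat cells and 11.67, 11.81, 12.07 and 11.92 in APC cells, against 12.45, 12.10, 12.60 and 12.54 in siGFP cells, and fell in APC cells to 68.1% of siGFP (log2 difference -0.56, SE 0.10, adjusted p = 0.000295). A second ANLN probe set was lower in APC cells by a like amount (-0.55) and in siTAZ cells too (-0.43), where the brightest differed by -0.075. RACGAP1 and KIF23, the partners in the centralspindlin complex, fell in APC cells by 0.46 and 0.42 and in sibcat cells by 0.63 and 0.45. A second KIF23 probe set read 0.00 in sibcat cells and -0.11 in APC cells, and without the probe sets that can cross-hybridise neither KIF23 call passed. Their siTAZ differences of -0.065 and -0.22 did not pass. KIF14, a motor of the midbody, fell in siTAZ cells by 0.29 and in sibcat cells by 0.42. ECT2, the activator of RhoA at the division plane, fell in sibcat cells by 0.29, a call lost or reversed under 8 of 28 alternatives. KIF20A, a motor of the central spindle, read 10.20, 10.11, 10.05 and 10.09 in siTAZ cells, 10.07, 10.11, 10.06 and 10.01 in sibcat cells and 10.30, 10.38, 10.40 and 10.35 in APC cells, against 10.14, 10.17, 10.10 and 10.16 in siGFP cells. It rose in APC cells (log2 difference 0.22, SE 0.047, adjusted p = 0.00149) and did not pass in siTAZ or sibcat cells.

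**Figure D4:**
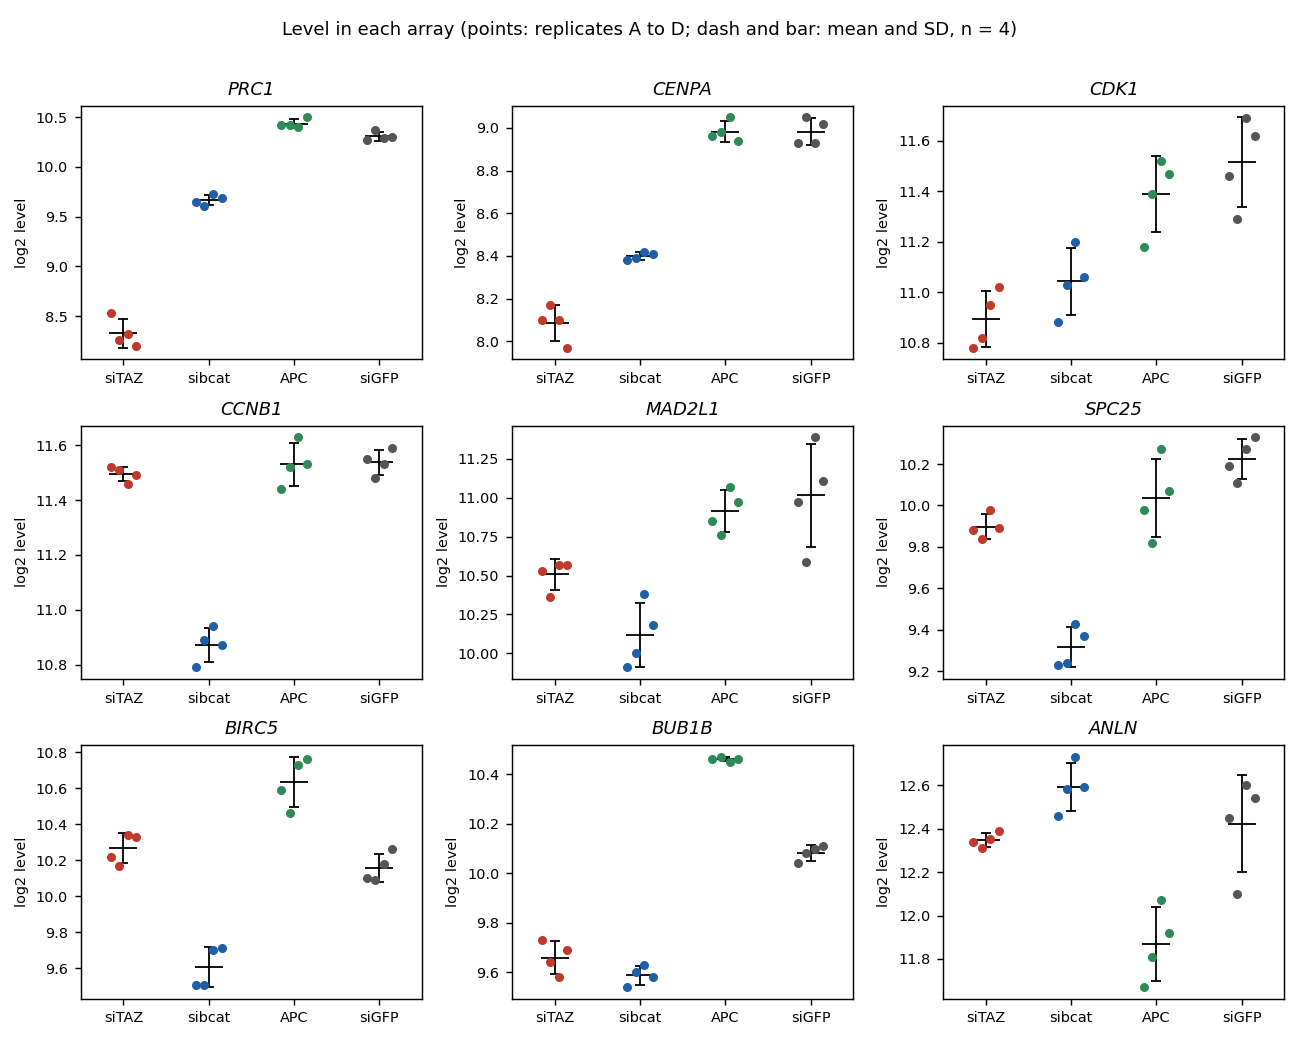
Log2 level (vertical axis, own scale in each panel) of 9 members in each array of the siTAZ, sibcat, APC and siGFP groups; points are replicates A to D, dashes and bars the mean and SD (n = 4). PRC1 averaged 8.33 in siTAZ cells and 10.31 in siGFP cells, SPC25 averaged 9.32 in sibcat cells and 10.23 in siGFP cells, and ANLN averaged 11.87 in APC cells and 12.42 in siGFP cells.

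All 5 chromosome structure genes fell in sibcat cells, 2 fell in siTAZ cells and 1 fell in APC cells. NCAPH, a subunit of condensin I, read 8.97, 8.93, 8.90 and 8.93 in siTAZ cells, 8.57, 8.52, 8.52 and 8.62 in sibcat cells and 9.16, 9.28, 9.26 and 9.37 in APC cells, against 9.17, 9.20, 9.22 and 9.31 in siGFP cells. It fell in sibcat cells (log2 difference -0.67, SE 0.052, adjusted p = 2.15e-08) and by 0.29 in siTAZ cells. TOP2A, the topoisomerase that untangles sister chromatids, read 12.22, 12.46, 12.36 and 12.45 in siTAZ cells, 11.96, 12.11, 12.10 and 12.01 in sibcat cells and 11.98, 12.11, 12.14 and 12.00 in APC cells, against 12.32, 12.10, 12.27 and 12.27 in siGFP cells. Its falls were small and overlapped siGFP (-0.20 in sibcat cells and -0.18 in APC cells), and they were lost under 9 and 15 of 28 alternatives. NCAPG, of the same complex, fell in sibcat cells by 0.45. SMC2 and SMC4, the core of condensin, fell in sibcat cells by 0.47 and 0.21, and SMC4 fell in siTAZ cells by 0.28.

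FOXM1, the transcription factor that drives many of these genes, read 9.75, 9.59, 9.65 and 9.78 in siTAZ cells, 9.23, 9.41, 9.37 and 9.35 in sibcat cells and 9.73, 9.64, 9.61 and 9.76 in APC cells, against 9.53, 9.47, 9.49 and 9.52 in siGFP cells. It rose in siTAZ cells (log2 difference 0.19, SE 0.057, adjusted p = 0.0165) and APC cells (log2 difference 0.18, SE 0.057, adjusted p = 0.019) and fell in sibcat cells (log2 difference -0.16, SE 0.057, adjusted p = 0.0335). In siTAZ cells FOXM1 thus moved opposite to the 27 members that fell. These changes were under 1.15-fold, and the calls were lost under 6, 4 and 9 of 27 alternatives in siTAZ, APC and sibcat cells.

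The groups were also set directly against each other. The ACTB measure differed between these groups too, and its part was not tested, apart from the fit with it as a covariate. In siTAZ against sibcat cells 35 members were higher, 3 lower and 20 not called, beside 18.9% of all genes called higher and 17.8% lower, and the median difference was 0.27. The 3 lower in siTAZ cells were PRC1 (-1.34), CENPA (-0.32) and CENPE (-0.32). Those highest in siTAZ over sibcat cells were CENPN (0.70), BIRC5 (0.66) and CCNB1 (0.62). CDK1 and AURKA, which fell in both, did not differ past the threshold between them (-0.15, 95% interval -0.35 to 0.054, and -0.12, 95% interval -0.26 to 0.018). In APC against sibcat cells 49 members were higher and 2 lower (20.3% and 21.7% of all genes), with a median of 0.46. CENPM (1.08, 211% of sibcat), BIRC5 (1.03, 204%) and KIF11 (0.93) led them, and the 2 lower in APC cells were ANLN (-0.72) and ESPL1 (-0.29). In siTAZ against APC cells 29 members were lower and 8 higher, beside 19.9% and 22.4% of all genes, with a median of -0.16. PRC1 (-2.11), CENPA (-0.90), BUB1B (-0.80) and KIF11 (-0.78) were the lowest in siTAZ over APC cells, and ANLN (0.48) and RACGAP1 (0.39) the highest.

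**Figure D5:**
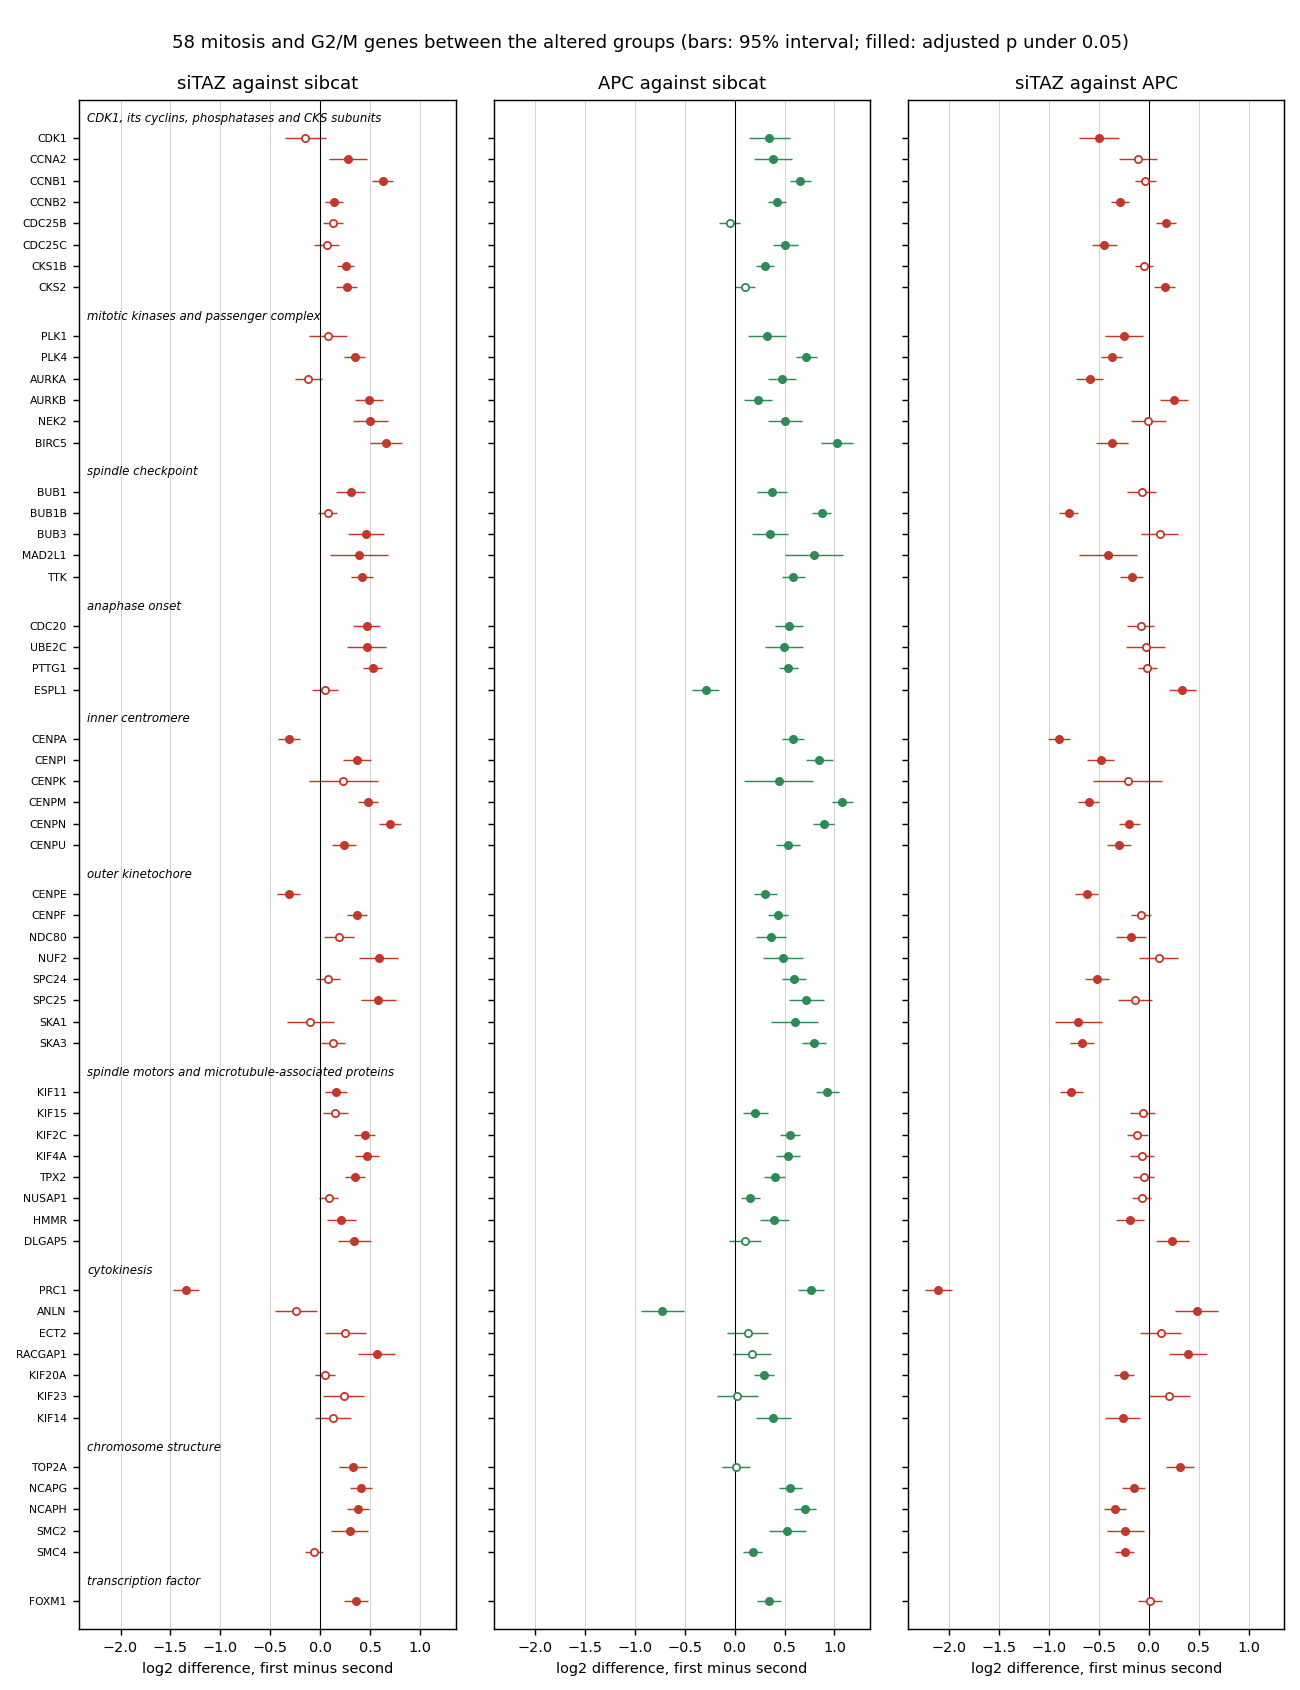
Log2 difference of each of the 58 members (rows, by role) in siTAZ minus sibcat, APC minus sibcat and siTAZ minus APC cells (panels, left to right) on a shared horizontal axis; bars are 95% intervals and filled points have an adjusted p under 0.05. Most filled points lie right of 0 in the left (35 of 38) and middle (49 of 51) panels and left of 0 in the right panel (29 of 37).

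Members with a CHR match were set beside those without, as a description, beside 13.1%, 17.3% and 17.1% of all genes called lower and 17.0%, 18.6% and 16.6% called higher in siTAZ, sibcat and APC cells. Of the 34 with a match 19 fell and 0 rose in siTAZ cells, 31 fell and 0 rose in sibcat cells, and 9 fell and 2 rose in APC cells. Of the 15 without a match 5 fell and 1 rose in siTAZ cells, 11 fell and 1 rose in sibcat cells, and 0 fell and 5 rose in APC cells. These 15 lack the letters searched, and other spellings of the element were not looked for. Of the 9 with no promoter entry 3 fell and 1 rose in siTAZ cells, 9 fell and 0 rose in sibcat cells, and 1 fell and 4 rose in APC cells. Both kinds of promoter held genes that fell in siTAZ cells and genes that did not: CDC20 and KIF4A, with a match, did not pass, and CENPU and CENPE, without one, fell. The window of CENPI, counted among the 15 without a match, may begin at a later exon and not at its promoter, which was not tested.

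Other genes of the division programme were read from further lists. Of all genes 13.1%, 17.3% and 17.1% were called lower in siTAZ, sibcat and APC cells, and 17.0%, 18.6% and 16.6% higher. Of 93 other mitosis genes 59 fell and 2 rose in sibcat cells (median -0.30), 39 fell and 10 rose in siTAZ cells (median -0.13), and 24 rose and 9 fell in APC cells (median 0.073). In siTAZ cells LMNB1 (lamin B1) (-1.54), SMC1A (a cohesin core subunit, -1.52) and ZWINT (a kinetochore protein, -1.12) fell most. In sibcat cells ARPP19 (an inhibitor of a mitotic phosphatase, -1.05), MIS12 (a kinetochore subunit, -0.91) and CCNF (cyclin F, -0.90) fell most. In APC cells MAD1L1, the partner of MAD2L1, fell by 1.02, and OIP5 (0.71) and TRIP13 (0.51) rose. Of the 12 MuvB and MYB regulators 7 fell and 1 rose in siTAZ cells, where RBL2 (-1.34), LIN52 (-1.06) and TFDP1 (-0.92) moved most. In sibcat cells 6 fell and 0 rose, led by TFDP1 (-0.95), LIN54 (-0.50) and LIN9 (-0.48), and in APC cells 2 rose and 2 fell, with MYBL2 (0.48), NFYC (0.27) and LIN52 (-0.39). The APC counts, 16.7% of the list each way, are close to the 16.6% higher and 17.1% lower over all genes. RBL2, LIN52 and TFDP1 belong to the repressor form of the complex, and the MuvB proteins LIN9, LIN52 and LIN54 to both forms. LIN54 was below the median probe set level in every group.

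Replication genes fell most widely in sibcat cells. Their counts stand beside the same shares of all genes as those of the lists above. Of 47 DNA replication genes 45 fell and 0 rose in sibcat cells (median -0.53), led by GINS1 (-1.38), MCM10 (-1.20) and RFC5 (-1.17), which act at the replication fork. In siTAZ cells 23 fell and 4 rose (median -0.16), with PRIM2 (-1.45), POLE2 (-0.87) and UHRF1 (-0.78) lowest. In APC cells 25 rose and 6 fell (median 0.15), with TK1 (0.88) and GINS2 (0.79) raised and CCNE2 (-0.63) lowered. The median replication level averaged 9.31 in siTAZ cells, 8.77 in sibcat cells, 9.82 in APC cells and 9.41 in siGFP cells.

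Alternative probe sets bear on single genes. The 58 members had 113 probe sets, and 27 members rest on one whose ID marks possible cross-hybridisation. Of called members with other probe sets, another was called the same way for 23 of 28 in sibcat cells, 7 of 13 in siTAZ cells and 5 of 10 in APC cells, and 0 were called the opposite way. Beyond the genes for which this is said above, calls lost under 1 to 3 of the alternatives were those of TTK, BUB1, CENPM, CENPU, NDC80, NUSAP1, KIF14 and NCAPH in siTAZ cells, of CDC25B, CKS2, BUB3, CENPF, SPC24, TPX2 and SMC4 in sibcat cells, and of CDC25B and KIF20A in APC cells. CENPN in siTAZ cells was lost or reversed under 7 and CDC25C in APC cells lost under 9. Between groups, KIF11 and MAD2L1 in siTAZ against sibcat cells were each lost or reversed under 8.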

How the data were processed

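RNA of 16 SW480 samples, 4 in each of 4 groups, was measured on Affymetrix 3′ expression arrays. The deposited values are log2 intensities that the authors made with RMA (background correction, quantile normalisation and summary per probe set), per the submitters' processing notes, with no version given; a base of 2 was inferred from their range, 1.80 to 14.56. RMA sets every array to one distribution, so a shift of all genes together cannot be seen. Of 54675 probe sets, 41097 are paired with a single gene in the platform annotation, 1801 with several and 11777 with none. The brightest probe set stood for each of 19775 genes. All arrays were fitted together in limma 3.58.1 (R 4.3.3), without the replicate letter, with Benjamini-Hochberg adjustment over all genes and a threshold of 0.05. Standard errors and 95% intervals are limma's. The ACTB measure was compared by exact two-sided permutation tests over all arrays and within letters A and B and C and D. The fit was tested on simulated data.

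Precision is limited by the number of arrays. The titles call the replicates biological but do not say what was separate (culture, transfection or extraction), so the p-values measure how these samples varied. Members and gene lists were chosen with earlier results of these data known. All members may be named; values on every array are given for 13 textbook members and for the largest called fall and rise of each role class in each comparison with siGFP, and up to 3 genes of each other list are named per comparison. The 28 alternatives covered normalisation, probe set choice, dim genes, the ACTB covariate, the replicate block and leaving out each array, and 3 that split A and B from C and D were added after the data were seen. Promoter sequences are from RefSeq (GRCh38.p14), matched by symbol.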

Additional observations from a re-analysis of the deposited data

Results flagged for a closer look

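Of 232 sets of 4 arrays (58 members in 4 groups), 7 held an array far from the other 3, fewer than the 1 in 20 that chance gives. In siTAZ cells, CKS2 read 12.58 in replicate D, against 12.63 to 12.64 in the others. In sibcat cells, SKA3 read 7.90 in replicate A (others 8.06 to 8.08), CENPM read 7.80 in replicate B (others 7.96 to 7.98) and CENPU read 9.23 in replicate C (others 9.33 to 9.35). In APC cells replicate D was high for PLK4, at 8.85 (others 8.77 to 8.78), and for SKA3, at 8.95 (others 8.76 to 8.79). In siGFP cells NDC80 read 10.28 in replicate B, against 10.48 to 10.51 in the others.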

How the results depend on the processing

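Leaving out each array in turn, the members called lower ranged from 25 to 30 in siTAZ cells, 46 to 51 in sibcat cells and 6 to 12 in APC cells against siGFP cells, and those called higher from 1 to 3, 1 to 1 and 8 to 11. Their median differences ranged from -0.18 to -0.14, -0.48 to -0.42 and 0.0058 to 0.045, and the genes called over all from 5471 to 6056, 6534 to 7130 and 6114 to 6815. For siTAZ against sibcat cells 31 to 38 were higher and 3 to 4 lower (median 0.25 to 0.32, 6808 to 7533 genes over all). For APC against sibcat cells 48 to 50 were higher and 2 to 2 lower (median 0.43 to 0.48, 7842 to 8598 genes). For siTAZ against APC cells 7 to 9 were higher and 22 to 29 lower (median -0.19 to -0.14, 7946 to 8674 genes). With replicates A and B alone, which leaves fewer arrays, 1 member was higher and 15 lower in siTAZ cells (3566 genes over all), 0 higher in sibcat cells, and 6 higher and 6 lower in APC cells (4183 genes); siTAZ against sibcat gave a median of 0.33, and siTAZ against APC 5 higher and 19 lower. With C and D alone 1 was higher in siTAZ cells and 6 lower in APC cells, and with only the groups compared 6 were lower in APC cells. Without probe sets that can cross-hybridise, where 46 members remain, 1 was higher in siTAZ cells, 0 higher in sibcat cells and 4 lower in APC cells; siTAZ against sibcat gave 1 lower (median 0.22), APC against sibcat 1 lower and siTAZ against APC 5 higher. Centring arrays gave medians of -0.22 in siTAZ cells (1 higher), -0.50 in sibcat cells, 0.52 for APC against sibcat and -0.25 for siTAZ against APC cells (5 higher). The ACTB covariate gave a median of 0.32 for siTAZ against sibcat cells. The replicate block gave 5 lower for siTAZ against sibcat cells and the A and B against C and D term 5 as well. Same-lettered arrays of different groups deviated together with r of 0.084 to 0.40 (median 0.15). This was not all above 0.1, so single letters were not taken to pair samples. Arrays of other letters within A and B, or within C and D, were as close (0.030 to 0.35, median 0.16). All 48 pairs across that split were negative (-0.465 to -0.023, median -0.16). Deviations were from each group's own mean and sum to 0, so this follows in part from the positive pairs and adds no support. Replicates A and B thus deviated together across groups, as did C and D, and the main fit had no term for this. With the block 29 members were lower in siTAZ cells, 51 in sibcat cells and 12 in APC cells. With the mean of all probe sets CCNA2 in siTAZ cells, at 0.00 in the main fit, was called lower (-0.20). Signs turned with that mean for BUB1 (0.042) and CENPU (0.19) in APC cells, and BUB3 (-0.14), CENPN (0.0025) and ECT2 (-0.19) in siTAZ against APC cells. They turned without cross-hybridising probe sets for CDC25C (0.24) and CENPN (0.088) in siTAZ cells, CDC25C (0.19) and ECT2 (0.0025) in sibcat cells, CCNB1 (0.28) and CENPU (0.41) in APC cells, MAD2L1 in siTAZ against sibcat cells (-0.11) and CENPN in siTAZ against APC cells (0.33). The cause was not tested, beyond the smaller numbers of arrays or probe sets named. Of members called, 13 of 29 in siTAZ cells, 37 of 52 in sibcat cells and 10 of 21 in APC cells were called the same way under every alternative that gave the gene a value.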
